A study of Mus musculus with 4 samples.

Results

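The ERBB receptors and their ligands were followed in mouse mammary tumours as a set of 10 genes, of which 4 encode receptors (Egfr, Erbb2, Erbb3 and Erbb4) and 6 encode ligands (Areg, Ereg, Btc, Hbegf, Tgfa and Nrg1). Probes were taken by the gene name that the array gives, current or former, Hbegf being listed as Dtr. This found 9 probes for 8 of the 10 genes and none for Erbb3 or Nrg1. A further 19 probes were added, without a check of probe sequences, where the array's description or accession names one of the genes. This made 28 probes of the 41174 outside controls. Of these, 16 read receptors and 12 read ligands, and 25 passed a filter on dim signals that kept 37177 probes in all, or 32647 genes and transcripts.

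Tumours of 2 mice carrying the MMTV-cdc25a and MMTV-neu transgenes (Cdc25a;neu) were set against those of 2 mice with only the MMTV-neu transgene (neu). All 4 mice were FVB/N females aged 26 weeks with mammary tumours of the T1 stage, described as early and smaller than 1 cm. Every tumour, on both sides of the comparison, thus came from a mouse with the neu transgene. The mammary tumour virus promoter (MMTV) directs a transgene mainly to mammary epithelium. The labels give neither the form of neu nor the number of founder lines. Each Cdc25a;neu tumour shared 2-colour Agilent arrays with 1 neu tumour, once in each dye orientation, which gave 4 arrays and 2 mouse pairs.

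ERBB receptors are tyrosine kinases of the cell surface that signal as pairs. Erbb2, called neu in rodents, has no known ligand of its own and is the favoured partner of the others, while Erbb3 has little kinase activity and signals through its partner. The ligands are made as membrane-bound precursors and released by metalloproteases: Areg and Tgfa bind Egfr, Btc, Ereg and Hbegf bind both Egfr and Erbb4, and Nrg1 binds Erbb3 and Erbb4.

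The arrays held 41534 spots outside controls, and per array 78.5% to 92.2% of green and 82.7% to 87.9% of red spot signals were well above background. The turned log2 ratios correlated at 0.643 and 0.755 between the arrays of a pair and at 0.195 to 0.364 between arrays of different pairs, over probes that are not independent. The luminal keratins Krt8 and Krt18 and the epithelial surface proteins Epcam and Cdh1 were well above background on 4 arrays in both genotypes, so markers of the epithelium of the labelled tissue were present. The summed level of the 6 luminal markers was 40940 and 44181 in the Cdc25a;neu tumours and 43041 and 46299 in the neu tumours. Most of this sum came from Krt8 and Krt18, and the median log2 ratio of the 6 was -0.14 in each pair. Fat cell markers differed far more: 5 of 7 were lower on all 4 arrays, against 12.4% over the array with 1 probe per gene. Their summed level was 1792 and 2429 in Cdc25a;neu tumours, against 6606 and 17660 in neu tumours, with Fabp4 the largest part in each tumour. Skeletal muscle markers summed to 914 and 1080 in Cdc25a;neu tumours, against 995 and 3784 in neu tumours. None of these lists had a marker listed at 0.

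In Cdc25a;neu tumours, 1 of the 2 Erbb2 probes and the Hbegf probe gave higher values, and all 4 Egfr probes gave lower values on all 4 arrays. The remaining probes had mean log2 ratios from -0.24 to 0.19, a range that also holds the Egfr means of -0.17 and -0.14. Several of the dimmer remaining probes were further from 0 in the scanner's own signals or in the deposited value table, as given with each. None of these differences passed the test. In the limma fit over all 37177 kept probes, 0 of the 25 member probes had an adjusted p under 0.05, against 0% of all kept probes. The lowest adjusted p was 0.453 among the members and 0.245 over the array. At an unadjusted p under 0.05, 2 member probes were higher (Erbb2 and Hbegf), against 3.74% of all kept probes, and 2 were lower (both Egfr), against 5.7%. Counted by direction, 4 of 25 member probes were higher on all 4 arrays, against 14.2% of all kept probes. They were an Erbb2, an Erbb3 and an Erbb4 probe and the Hbegf probe. The 4 probes lower on all 4 arrays, against 12.6%, were those of Egfr. The median log2 ratio of the members was 0.008, and that of all kept probes was 0.002. Taken in either direction, 4 of 25 had an unadjusted p under 0.05, against 9.43%. By tumour levels, 5 probes had both Cdc25a;neu tumours above both neu tumours, against 8.46% over the array, and 3 had both below, against 11.4%. Among the 5 was a dim Erbb3 probe, at 6.17 and 6.16 in Cdc25a;neu tumours against 6.12 and 6.1 in neu tumours. It was well above background on 3 arrays in Cdc25a;neu and on 1 in neu. It thus passed the filter on dim signals only through the genotype where it was higher.

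**Figure D1:**
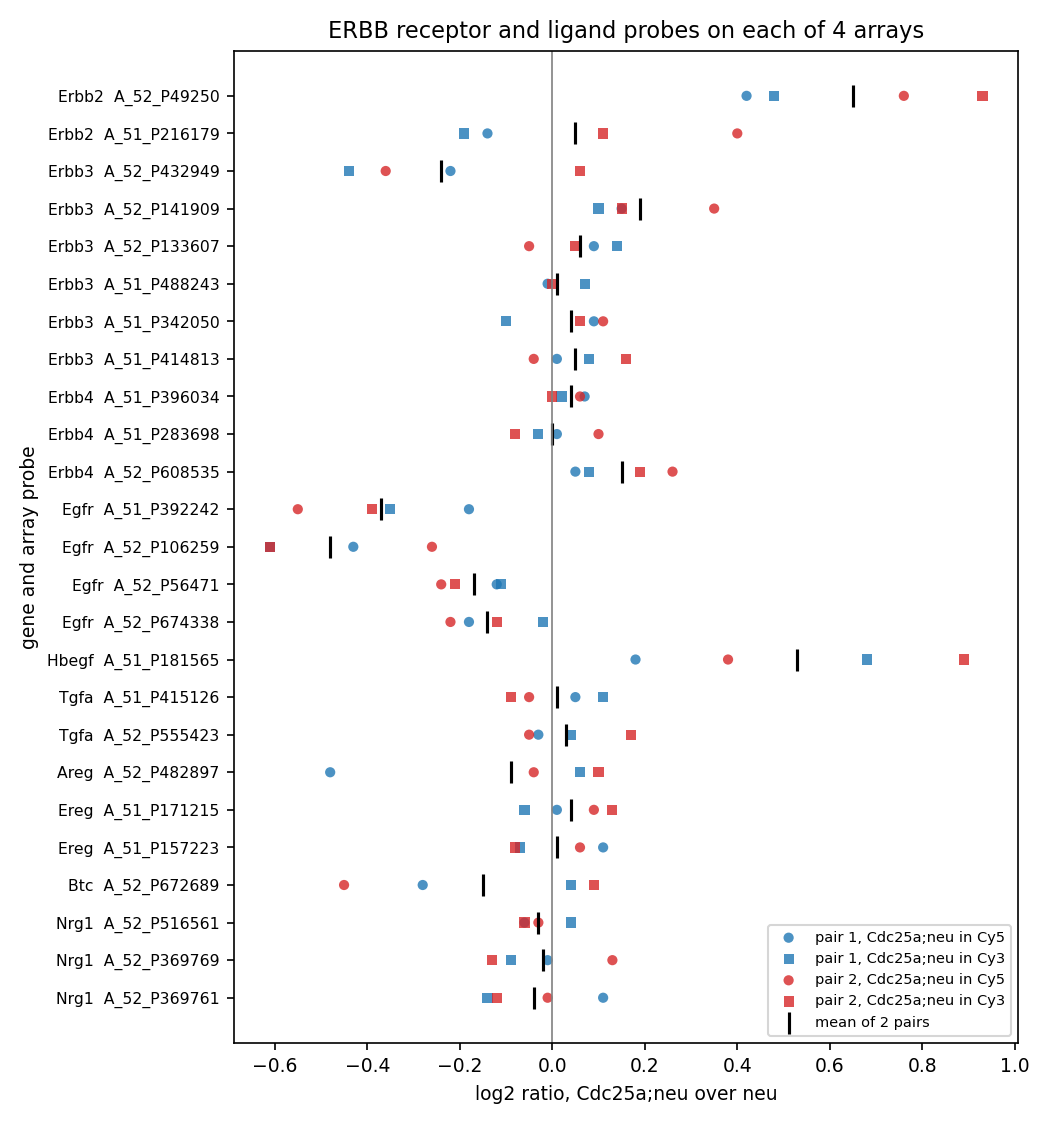
Log2 ratios of Cdc25a;neu over neu for the 25 kept probes on each of the 4 arrays (colour: mouse pair, symbol: dye of the Cdc25a;neu tumour), with a bar for the mean of the 2 pairs. An Erbb2, an Erbb3 and an Erbb4 probe and the Hbegf probe lie right of 0 on all 4 arrays, and the 4 Egfr probes lie left of 0 on all 4.

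The promoters of Erbb2 and Egfr are shown because these are the receptor genes with the highest and the lowest mean ratio, and because the neu transgene is driven by a viral promoter instead of the mouse gene's own. Both genes lie on mouse chromosome 11. The sequences are the 250 bases before each gene's start from RefSeq (GRCm38.p6), both on the + strand, Erbb2 at chr11:98412234-98412483 and Egfr at chr11:16751953-16752202. Capitals mark the GC box letters GGGCGG, searched on both strands and found here as CCGCCC.
Erbb2: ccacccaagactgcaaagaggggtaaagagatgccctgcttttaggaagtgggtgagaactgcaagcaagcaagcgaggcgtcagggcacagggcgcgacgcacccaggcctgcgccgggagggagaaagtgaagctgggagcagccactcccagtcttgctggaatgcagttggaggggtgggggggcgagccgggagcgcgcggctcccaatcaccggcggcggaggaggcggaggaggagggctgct
Egfr: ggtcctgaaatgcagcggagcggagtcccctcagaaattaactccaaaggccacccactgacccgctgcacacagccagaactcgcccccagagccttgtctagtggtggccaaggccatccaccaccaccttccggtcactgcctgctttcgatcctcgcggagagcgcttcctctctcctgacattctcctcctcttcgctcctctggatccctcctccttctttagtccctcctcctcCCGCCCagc
Egfr held 1 such match and Erbb2 held 0, while 32.7% of 32851 promoters of this length held at least 1. The windows were 66.0% G and C in Erbb2 and 60.8% in Egfr. A match is a run of letters and was not tied to any value on the arrays.

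Erbb2 was higher by the probe that carries its gene name, which the array describes by a clone name. This probe gave log2 levels of 9.42 and 9.94 in the Cdc25a;neu tumours of pairs 1 and 2, against 8.97 and 9.09 in the neu tumours. Both Cdc25a;neu tumours lay above both neu tumours, and the wider gap was in pair 2. The log2 ratios were 0.42 and 0.48 on the arrays of pair 1 and 0.76 and 0.93 on those of pair 2, so dye orientation moved them little. The mean was 0.65 ± 0.28 (SD, n = 2 pairs), a 1.57-fold higher value with a 95% interval of 0.21 to 1.08 (limma, unadjusted p = 0.0189, adjusted p = 0.504). Over the array, 0.928% of kept probes were at least this high. Its place among the members depended on the processing: it lay above Hbegf here, but below it with the scanner's processed signals and loess (0.732 for Erbb2, 0.842 for Hbegf), the scanner's log ratio (0.717 and 0.839) and the deposited value table (0.732 and 0.892). The labels do not say which neu sequence the transgene carries, and whether this probe reads the transgene, the mouse gene or both was not tested.

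The other Erbb2 probe, described as a partial coding sequence, gave no such difference. Its log2 levels were 6.72 and 6.99 in Cdc25a;neu tumours and 6.88 and 6.74 in neu tumours. The genotypes overlapped, and the pairs went opposite ways, at -0.17 in pair 1 and 0.26 in pair 2. The mean log2 ratio was 0.05 ± 0.30, with a 95% interval of -0.41 to 0.50 (limma adjusted p = 0.932). The Erbb2 difference therefore rests on 1 of the gene's 2 probes.

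The probes that ran most like the first Erbb2 probe over the 4 arrays are given as description only. Counts for other probes of like ratio were not made. Among 30620 probes well above background everywhere, 17 had a root mean square difference from it under 0.1 on the log2 scale, and 6 matched its pattern with the sign turned. The nearest named ones were the cadherin family member Cdhr5 (0.039), the BMP and activin receptor Acvr1 (0.049), the Rag GTPase Rragd (0.051), the zinc transporter Slc39a8 (0.063) and the olfactory receptor Olfr282 (0.082). These differences are over 4 arrays of only 2 mouse pairs.

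Egfr, the receptor for Egf and its relatives, was read by 4 probes, and all of them were lower on all 4 arrays. Among 73 genes with at least 4 kept probes, 2 (2.74%) had every probe lower on all 4 arrays, and the other was Trip4, a transcription coactivator. All Egfr probes but the one with the gene name were added by description. That step was not applied to genes outside the members, so this share does not compare like with like. The probe for transcript variant 1 gave log2 levels of 9.27 and 9.40 in Cdc25a;neu tumours, against 9.79 and 9.84 in neu tumours. Its values did not overlap between genotypes, and the pairs differed by nearly the same amount. The log2 ratios were -0.43, -0.61, -0.26 and -0.61, and the mean was -0.48 ± 0.06, or 71.9% of the neu level (95% interval -0.65 to -0.30; limma, unadjusted p = 0.00376, adjusted p = 0.453).

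The probe for Egfr transcript variant 2, the one that carries the gene name, gave log2 levels of 8.58 and 8.46 in Cdc25a;neu tumours, against 8.85 and 8.93 in neu tumours. These too were separate, with the wider gap in pair 2. The mean log2 ratio was -0.37 ± 0.14, or 77.5% of the neu level (95% interval -0.62 to -0.11; limma, unadjusted p = 0.0208, adjusted p = 0.504). The other 2 probes, one described as a truncated receptor and one as a BALB/c mRNA, gave means of -0.17 ± 0.08 and -0.14 ± 0.05 (limma adjusted p = 0.537 and 0.549). Their levels overlapped between the genotypes, because the tumours of pair 2 were brighter than those of pair 1 in both, while each pair by itself showed the lower value in Cdc25a;neu.

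In whole tumours, fewer cells of a type and less RNA per cell cannot be told apart. Egfr is also made by fat and connective tissue cells, and the fat cell markers had median log2 ratios of -1.31 (pair 1) and -2.51 (pair 2). For fibroblast markers these medians were -0.38 (pair 1) and 0.07 (pair 2), but the markers split in pair 2, where the collagens Col1a1 and Col1a2 were at 1.60 and 1.32 and the proteoglycan Dcn at -0.65. Their summed level was 1478 and 7501 in Cdc25a;neu tumours, against 1973 and 3770 in neu tumours. The part of these cells in the Egfr values was not tested.

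**Figure D2:**
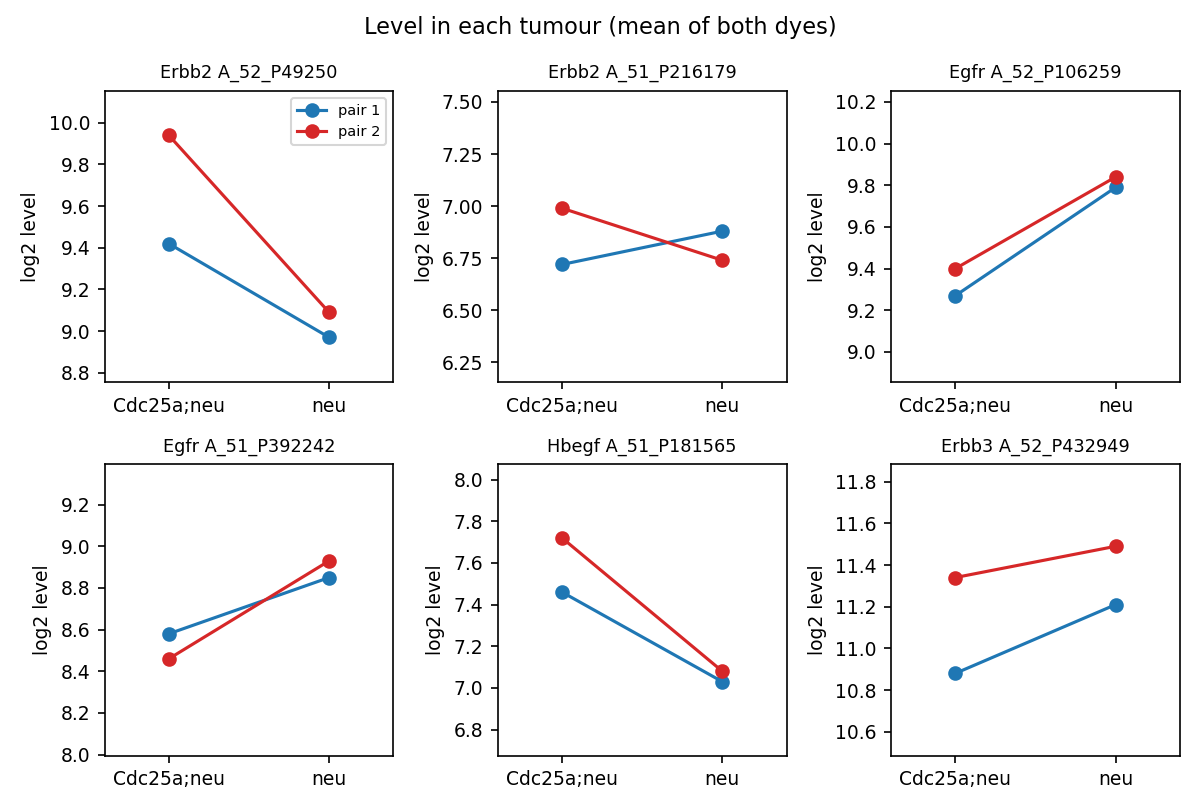
Log2 levels in each of the 4 tumours for the 2 Erbb2 probes, 2 Egfr probes, the Hbegf probe and the brightest Erbb3 probe, with Cdc25a;neu left of neu and a line joining each mouse pair. Lines fall toward neu in both pairs for the gene-name Erbb2 probe and Hbegf, climb toward neu in both for Egfr and Erbb3, and run opposite ways in the 2 pairs for the second Erbb2 probe.

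Erbb3, the partner through which Erbb2 reaches the phosphatidylinositol 3-kinase pathway, was read by 6 kept probes that did not agree in direction. The brightest gave log2 levels of 10.88 and 11.34 in Cdc25a;neu tumours and 11.21 and 11.49 in neu tumours. Each pair mean was lower in Cdc25a;neu, but the genotypes overlapped. The arrays of pair 2 differed by dye, at -0.36 with Cdc25a;neu in Cy5 and 0.06 with it in Cy3. The mean log2 ratio was -0.24 ± 0.13, with a 95% interval of -0.48 to 0.00 (limma adjusted p = 0.530). A probe for a sequence similar to the rat protein went the other way, at 8.82 and 8.86 in Cdc25a;neu tumours, against 8.70 and 8.61 in neu tumours. Its genotypes did not overlap, and its mean log2 ratio was 0.19 ± 0.09 (95% interval -0.01 to 0.38; limma adjusted p = 0.535). The other 4 Erbb3 probes were dim, with log2 levels of 6.1 to 6.72. One of them was well above background on 3 arrays in Cdc25a;neu and on 1 in neu. The means of these 4 probes were 0.01 to 0.06, with limma adjusted p of 0.739 to 0.941. Of these, 1 lost a spot to an outlier flag, so that its pair 2 value rests on 1 array.

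Erbb4, a receptor for neuregulins that promotes mammary differentiation, was read by 3 kept probes, whose 95% intervals overlapped and all included 0. The probe for its intracellular domain gave log2 levels of 11.97 and 11.99 in Cdc25a;neu tumours and 11.98 and 11.98 in neu tumours, with a mean log2 ratio of -0.00 and a 95% interval of -0.15 to 0.15 (limma adjusted p = 0.999). That probe was matched by its description, and whether it reads Erbb4 was not tested. The probe that carries the gene name had a mean of 0.04 ± 0.01 (95% interval -0.11 to 0.19; limma adjusted p = 0.809). The extracellular domain probe was higher on all 4 arrays, at 0.05, 0.08, 0.26 and 0.19, with a mean of 0.15 ± 0.11 (95% interval -0.07 to 0.36; limma adjusted p = 0.594). This mean was 0.294 with the scanner's processed signals and loess, 0.297 with its log ratio and 0.349 with the deposited value table (limma adjusted p = 0.551 to 0.590). The remaining probe was not well above background on any of the 4 arrays in either genotype.

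Hbegf, a heparin-binding ligand of Egfr and Erbb4, was the ligand with the largest difference. Its log2 levels were 7.46 and 7.72 in Cdc25a;neu tumours, against 7.03 and 7.08 in neu tumours. Both Cdc25a;neu tumours lay above both neu tumours. The log2 ratios were 0.18 and 0.68 in pair 1 and 0.38 and 0.89 in pair 2. In each pair the array with the Cdc25a;neu tumour in Cy5 gave the smaller ratio, by 0.50 in pair 1 and 0.51 in pair 2, and the dye swap averages this gap out. The mean was 0.53 ± 0.14, a 1.45-fold higher value with a 95% interval of 0.28 to 0.79 (limma, unadjusted p = 0.00796, adjusted p = 0.469). It was higher, at 0.892, in the deposited value table. At least as high were 1.2% of the kept probes.

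Btc (betacellulin) leaned the other way on a single kept probe. Its log2 levels were 6.47 and 6.39 in Cdc25a;neu tumours, against 6.59 and 6.57 in neu tumours, without overlap. The array ratios, however, differed by dye: -0.28 and -0.45 with Cdc25a;neu in Cy5, and 0.04 and 0.09 with it in Cy3. The mean was -0.15 ± 0.04 (95% interval -0.31 to 0.01; limma adjusted p = 0.537). It was -0.447 with the scanner's processed signals and loess (limma, unadjusted p = 0.0155, adjusted p = 0.563), and -0.0687 or -0.0133 when the Cy5 array of pair 1 or of pair 2 was left out. In the main ratios the lower value thus appeared in 1 dye orientation only. By the scanner's processed signals, Btc with Cdc25a;neu in Cy3 was also lower in pair 1 (232 against 286 in neu), but not in pair 2 (309 against 264). The second Btc probe was not well above background on any array.

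Tgfa, a ligand of Egfr made by mammary epithelium, gave log2 levels of 7.11 and 7.0 in Cdc25a;neu tumours and 7.03 and 7.07 in neu tumours. The genotypes overlapped, the mean log2 ratio was 0.01 ± 0.11 (95% interval -0.21 to 0.22; limma adjusted p = 0.975), and a second probe gave 0.03 ± 0.04. Areg (amphiregulin), the ligand of ductal growth at puberty, was dim, at 5.83 and 6.38 in Cdc25a;neu tumours and 6.04 and 6.35 in neu tumours. It was well above background on 2 arrays for Cdc25a;neu and on 3 for neu. Its mean was -0.09 ± 0.17 (95% interval -0.37 to 0.20; limma adjusted p = 0.766), with -0.333 by the scanner's log ratio and 0.0905 by the deposited value table.

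Ereg (epiregulin) had means of 0.04 ± 0.10 and 0.01 ± 0.02 on its 2 probes (limma adjusted p = 0.855 and 0.971), and the probe that carries the gene name was well above background on 2 arrays in Cdc25a;neu and 1 in neu. Nrg1, the neuregulin that binds Erbb3 and Erbb4, gave -0.03, -0.02 and -0.04 on its 3 kept probes (limma adjusted p = 0.803 to 0.889). The 95% intervals of the kept Tgfa, Ereg and Nrg1 probes lay between -0.21 and 0.24 on the log2 scale. The deposited value table gave values beyond these, at 0.251 for the Ereg probe with the gene name and -0.365 for the Nrg1 probe at -0.04.

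**Figure D3:**
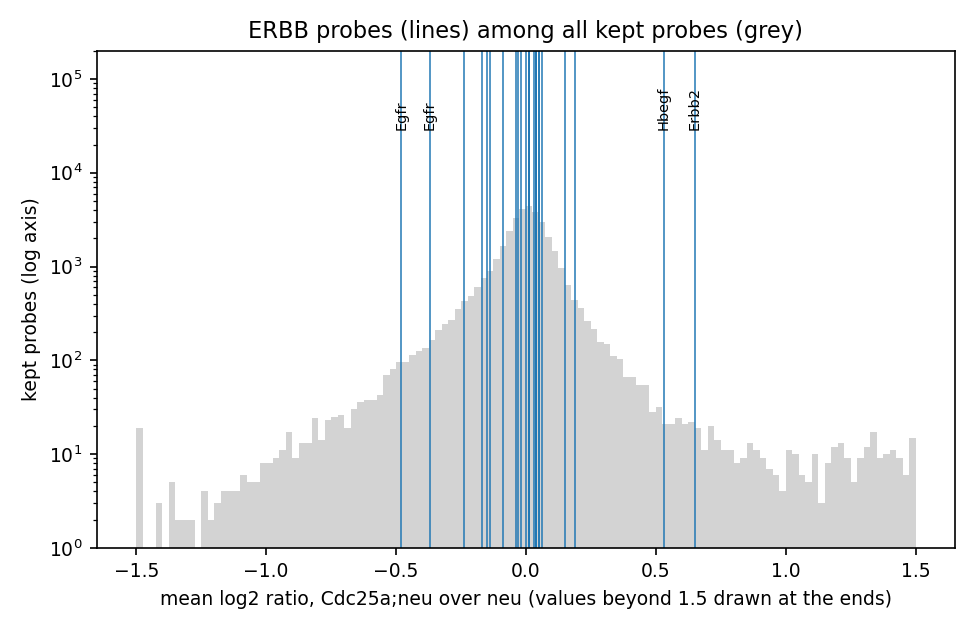
Mean log2 ratio of Cdc25a;neu over neu for the member probes against the distribution of all 37177 kept probes. The Erbb2 probe at 0.65 and the Hbegf probe at 0.53 lie in the upper tail, the Egfr probe at -0.48 lies in the lower tail, and most members lie near 0.

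Of 5 further ligands of the family, 3 were measured. Epgn (epigen), a ligand of Egfr, was higher on all 4 arrays, at 0.20, 0.51, 0.78 and 0.23, with a mean of 0.43 ± 0.11 (limma, unadjusted p = 0.00875, adjusted p = 0.471). Its log2 levels were 9.49 and 9.03 in Cdc25a;neu tumours and 9.13 and 8.52 in neu tumours, so the genotypes overlapped. Epgn was the 1 of the 3 that was higher at an unadjusted p under 0.05, against 3.93% over the array. Egf itself split by pair, at 0.39 and 0.31 in pair 1 and at -1.73 and -1.07 in pair 2, so its mean of -0.52 ± 1.24 describes neither (limma adjusted p = 0.777). Nrg4 gave 0.07 ± 0.05. Counted with 1 probe per gene over the array, 14.7% were higher and 12.4% lower on all 4 arrays.

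The median log2 ratio of 13 genes for the release of ligands from the membrane was -0.03. Of them, 2 were higher and 1 was lower on all 4 arrays, against 14.7% and 12.4% over the array. The lower one was Rhbdf2, an iRhom that brings Adam17 to the cell surface, at -0.28 ± 0.14 (limma, unadjusted p = 0.0381, adjusted p = 0.519), and its other probe gave -0.25. Adam15, a membrane metalloprotease, was at -0.29 ± 0.16 (limma adjusted p = 0.526). Adam17, the main protease for the release of Areg, Hbegf and Tgfa, was at -0.55 and -0.12 in pair 1 and at 0.68 and 0.46 in pair 2. Adam8, a metalloprotease found on leukocytes and some tumour cells, split the same way but further, at -0.52 and -0.38 in pair 1 against 2.31 and 2.61 in pair 2. Adamts1, a secreted metalloprotease, gave 0.28 ± 0.24, with -0.05 for its other probe.

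Of 21 measured receptor partners and turnover genes, 2 were higher and 5 lower on all 4 arrays, against 14.7% and 12.4% over the array. Their median was -0.06, and 3 were lower at an unadjusted p under 0.05, against 5.76% over the array. Errfi1, a feedback inhibitor that binds the kinase domains of Egfr and Erbb2, differed most. Its log2 ratios were -0.97, -0.83, -1.30 and -1.27, and the mean was -1.09 ± 0.27 (limma, unadjusted p = 0.00443, adjusted p = 0.453). Lrig3, a relative of the receptor-degrading Lrig1, was at -0.64 ± 0.08 (limma, unadjusted p = 0.0023, adjusted p = 0.453). Usp8, which removes ubiquitin from receptors on endosomes, was at -0.27 ± 0.07, but its other probe gave 0.19. Eps15, an adaptor of receptor endocytosis, was at -0.33 ± 0.25, and at -0.817 in the deposited value table.

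Among 30 measured adaptors and kinases directly below the receptors, 1 was higher and 8 were lower on all 4 arrays. The shares over the array were 14.7% and 12.4%, and the median of the list was -0.08. The Ras GTPase Hras was the one higher on all 4, at 0.27 ± 0.16 (limma adjusted p = 0.531). The adaptor Grb10 was at -0.78 ± 0.28 (limma adjusted p = 0.481), with 0.03 for its other probe. Grb7, an adaptor that binds Erbb2, was at -0.71 on both arrays of pair 1 and at -0.08 and -0.03 in pair 2.

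Grb7 is also a close chromosomal neighbour of Erbb2, and the other genes around Erbb2 were counted beside it. Of 17 measured neighbours, 0 were higher and 3 were lower on all 4 arrays, against 14.7% and 12.4% over the array. Their median log2 ratios were -0.03 (pair 1) and -0.11 (pair 2). Tcap, a sarcomere protein of striated muscle, was at -0.14 and 0.04 in pair 1 and at -2.11 and -1.69 in pair 2, where the skeletal muscle markers had a median of -1.83. Thra, a thyroid hormone receptor, was at 0.15 ± 0.37, and the Mediator subunit Med1 was at -0.16 ± 0.06, with -0.41 and -0.00 for its other probes. Expression ratios of neighbours do not measure copy number.

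**Figure D4:**
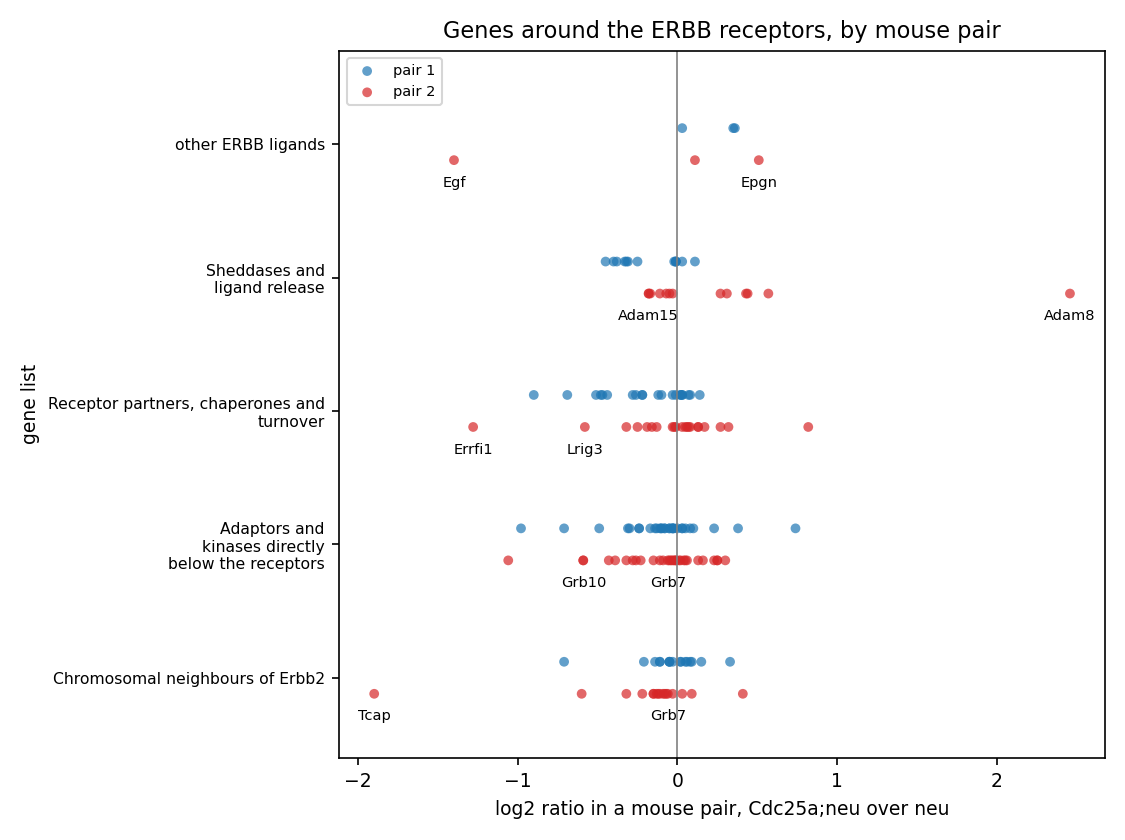
Log2 ratios of Cdc25a;neu over neu in pair 1 and pair 2 for the measured genes of the 5 lists around the receptors, with 1 probe per gene and the 2 genes of largest mean ratio in each list named. Errfi1, Lrig3 and Grb10 lie below 0 in both pairs, while Egf and Adam8 lie on opposite sides of 0 in the 2 pairs.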

How the data were processed

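For each spot, the deposited scanner files give intensity in both dyes (mean signal, local background median), the scanner's background-subtracted, dye-normalized signal, spot flags and a log10 ratio of red over green, all per the file headers. The submitters' processing notes name Agilent Feature Extraction 7.2, while the headers give 7.5.1. The authors' deposited value table holds natural log ratios of red over green, a scale settled against the scanner ratios (slopes 2.27 to 2.29, expected 2.30, r = 0.982 to 0.992), and served as an alternative. Its centring is not given in the sources used.

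Intensities were corrected by normexp (offset 50), then normalized by loess within each array with control spots at weight 0. Control spots and outlier-flagged spots were dropped, and repeat spots of a probe were averaged. Kept probes stood well above background in 1 or both channels on 2 or more arrays. Ratios were turned to Cdc25a;neu over neu, and the 2 arrays of a pair, which carry the same RNA extracts, were averaged. The mean of the 2 pairs was tested against 0 with limma 3.58.1 (R 4.3.3, eBayes, two-sided), with Benjamini-Hochberg adjustment over all 37177 kept probes at 0.05. SDs are between the 2 pairs, and intervals come from the same fit. Levels per tumour are log2 channel values after loess and Aquantile, averaged over dyes, and levels of different probes cannot be compared. The pairing comes from co-hybridisation. Slide could not be tested, since each array was its own.

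All members are named. Of each list, the 4 genes of largest mean ratio are named, with Errfi1, Grb7, Adam17 and Egf, by the brightest probe per gene. An item this rule would name is not reported here. The members and lists were chosen with earlier results of these data known. Of the probes outside controls, 18414 were named by accession, 1504 by symbol and 935 by synonym through RefSeq (GRCm38.p6), and 20321 kept the array's name. The fit was tested on simulated data. The number of pairs limits the precision.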

Additional observations from a re-analysis of the deposited data

How the results depend on the processing

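With 2 mouse pairs, the precision is limited by the number of animals. Over 18 alternatives, 13 member probes took the other sign in at least 1, all with a main mean log2 ratio of at most 0.0894 in size. The first Erbb2 probe ranged from 0.605 to 0.732, Hbegf from 0.404 to 0.892, and the Egfr probes from -0.564 to -0.0611, none with a change of sign. Hbegf was largest in the deposited value table. The count past an adjusted p of 0.05 in limma was 0 except in 2 settings. Median centring in place of loess called 1110 probes, 2 of them members (Erbb2 at 0.702, adjusted p = 0.000588, and Hbegf at 0.589, adjusted p = 0.00761). Taking the 4 arrays as units called 944, 2 of them members (Erbb2, adjusted p = 0.0370, and Egfr variant 1, adjusted p = 0.0378), and counts technical repeats as replicates. The cause of the first was not tested. Among the list genes, median centring also called Epgn, Adam8, Errfi1, Lrig3, Grb10 and Tcap, and the 4-array fit called Errfi1 and Grb10. Adam8 was called by median centring (limma adjusted p = 1.165e-06) although its pairs were at -0.45 and 2.46 in the main fit. A call in that setting thus did not need the 2 pairs to agree. With the mouse pair as replicate block in separate-channel values, the counts were those of the main test, 0 called and 3507 at an unadjusted p under 0.05. Without the block they were 0 and 1148, and with 4 arrays as units 6616 passed unadjusted. Leaving out each array in turn called 0 to 0 probes. Each array left out in turn gave ranges across 0 for 10 probes: -0.0261 to 0.116 for the second Erbb2 probe, -0.00648 to 0.0330 and -0.00936 to 0.0831 for 2 Erbb3 probes, -0.0460 to 0.0457 for intracellular Erbb4, -0.00668 to 0.0228 and -0.0217 to 0.0890 for Tgfa, -0.223 to 0.0444 for Areg, -0.0386 to 0.0525 for the second Ereg probe, and -0.0881 to 0.0392 and -0.104 to 0.0219 for 2 Nrg1 probes. Other reversed values were, for the intracellular Erbb4 probe, 0.00903 with offset 16, 0.0068 with processed signals and loess and 0.0534 with median centring. They were -0.00135 for Tgfa without background correction, and with median centring -0.0417 for the last Erbb3 probe, -0.0246 for the gene-name Erbb4 probe and -0.0694 for Ereg. With the deposited table they were 0.0905 for Areg and 0.0506 for an Nrg1 probe, and with flagged spots kept -0.559 for the Erbb3 probe with the flagged spot.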
